A study of Mus musculus with 16 samples.

Results

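Fatty acid oxidation in the liver was represented by 8 genes, and the open chromatin around each of them was followed in male and female livers of 2 mouse strains. The genes were Cpt1a, Cpt2, Acadm, Acadl, Hadha, Ehhadh, Pdk4 and Fgf21. DNase I digests DNA that is not packed tightly, and a place where it cuts often is called a DNase hypersensitive site (DHS), a sign of open chromatin. DHS peaks that overlapped a gene, or the 20 kb on either side of it, were taken from the 4 deposited lists and joined into regions wherever they shared at least 1 bp. This gave 44 regions, out of 51482 regions in the whole genome. The regions of each gene were numbered in the direction of transcription.

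The livers came from mice aged 8 weeks of C57BL/6J (B6), whose genome is the mouse reference, and CAST/EiJ (CAST), which was bred from wild-caught animals. Purified nuclei were treated with 32 units of DNase I. There were 16 libraries in 4 groups, namely male B6, female B6, male CAST and female CAST, with 4 libraries in each. No other treatment, diet or genetic change was given in the labels, and the source was whole liver rather than sorted cells. The authors called peaks on the pooled libraries of each group, so that each group had 1 list and no spread between animals could be computed. Every difference below is therefore between lists, carries no p-value, and its order cannot be set against variation between animals. CAST reads were mapped to a CAST version of the genome and their positions converted to the mouse assembly mm9, which all coordinates here use, counted from 1. A difference between strains could not be told apart from a difference in mapping.

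The liver burns fatty acids during fasting and passes part of the product to other organs as ketone bodies. Long-chain fatty acids enter mitochondria as carnitine esters and are then shortened stepwise, while peroxisomes shorten the longest chains first. Many genes of these steps are activated by the nuclear receptor PPARα, which binds DNA as a pair with RXR at direct repeats separated by a single base. The 8 genes cover import, the oxidation cycles, the switch away from glucose and a fasting hormone. The enzymes that make ketone bodies were counted with the other genes of the pathway.

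The depth of the lists differed, and it was recovered from the deposited values as the number of overlapping fragments that formed each list's genome-wide background. This background was 15.4 fragments in B6 males, 13.9 in B6 females, 14.3 in CAST males and 7.94 in CAST females. A site on that background needed at least 30, 28, 28 and 19 fragments, in the same order, to be called. The liver label was checked with marker genes. The start sites of 4 of 5 hepatocyte markers lay in a region of all 4 lists (all except Apoa1, which had the 2 male lists), against 0 of 3 Kupffer cell, 0 of 3 stellate and 0 of 3 bile duct markers. Of the 3 sinusoidal endothelial markers, Stab2 had its start site in all 4 lists, Clec4g in 3 and Lyve1 in 1, and the stellate marker Reln had it in 3. The part of such other cells in the results was not tested. Fewer open cells and less opening per cell cannot be told apart in such bulk material.

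The neighbourhoods of the 8 genes were rich in DHS beside those of protein-coding genes at large. The 8 windows pooled held 8.23 regions per 100 kb. The median over 22380 protein-coding genes, an unlike measure, was 3.25, and 50.6% of those genes had no start site in any region. The number of regions per gene ran from 3 at Ehhadh to 8 at Cpt1a, with a median of 6, against a median of 2 over protein-coding genes. The hepatocyte markers had from 9 at Ttr and Cps1 to 12 at Alb and Hnf4a, so such numbers were not particular to the 8 genes. Of the 44 regions, 22 (50.0%) were promoter-distal, that is more than 2.5 kb from every annotated start site, compared with 67.1% of all regions. Not all of them need belong to the gene they were assigned to, as 29 had a start site of that gene as the nearest one and 6 lay over the start site of a neighbouring gene only. Male B6 had 41 peaks at the 8 genes, female B6 had 30, male CAST had 36 and female CAST had 31.

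Presence was more uniform across the lists than in the genome at large. There were 23 regions (52.3%) in all 4 lists, where 35.6% of all regions were. Only 9 (20.5%) were found in a single list, against a background of 35.2%, and 7 of those 9 were in male B6 alone, 15.9% of the 44 regions where 14.2% of all regions fell in that class. A further 5 regions were in every list but female B6 (background 4.73%), and 3 were in every list but female CAST (background 6.85%). The shares were not matched for position, and 50.0% of the regions at the 8 genes were distal, against 67.1% of all regions. In the genome, 24.0% of distal regions and 59.1% of those near start sites were in all 4 lists. Sex- or strain-limited regions were few in the deposited lists. Both male lists and no female list held 2 regions (background 9.38%), both female lists and no male list held 0 (background 0.0622%), both B6 lists and no CAST list held 1 (background 3.32%), and both CAST lists and no B6 list held 0 (background 3.62%). The number in both male lists only was 5 at a stricter threshold, 1 with a window of 10 kb and 0 with lists of equal size. The last region, in an intron of Hadha, was in the lists of B6 females and CAST males.

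**Figure D1:**
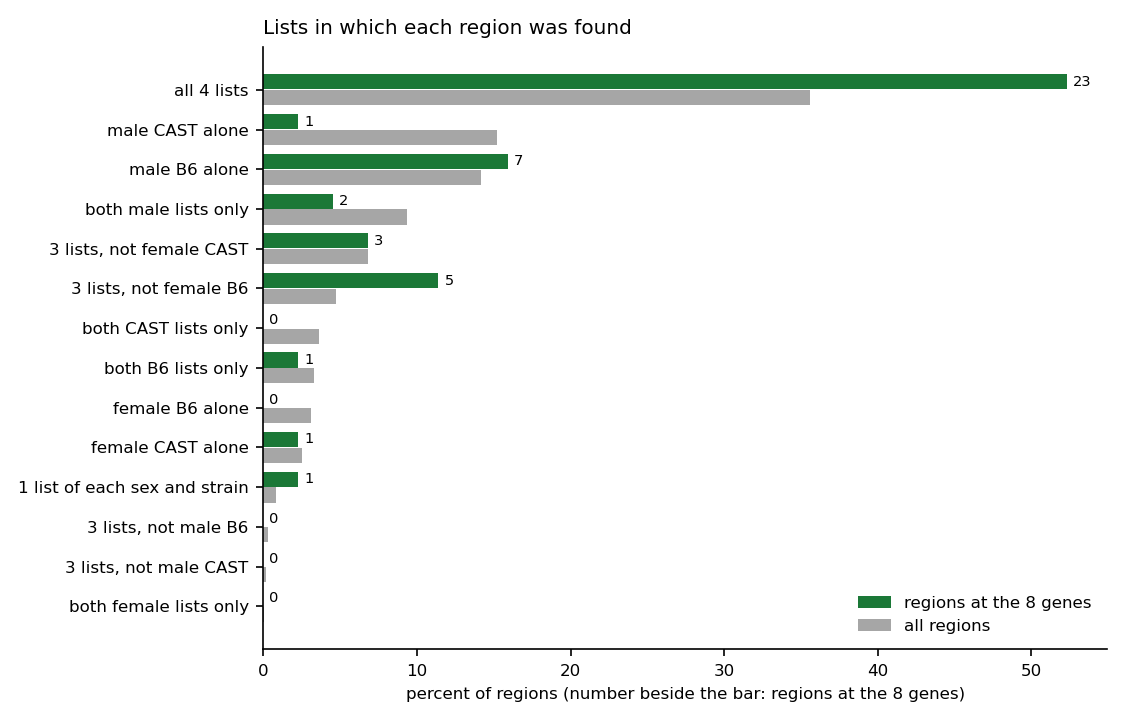
Percentage of the 44 regions at the 8 genes (green) and of all 51482 regions (grey) in each combination of lists, with the number of regions at the 8 genes beside each green bar. The 23 regions of all 4 lists make up 52.3% at the 8 genes and 35.6% in the genome.

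**Figure D2:**
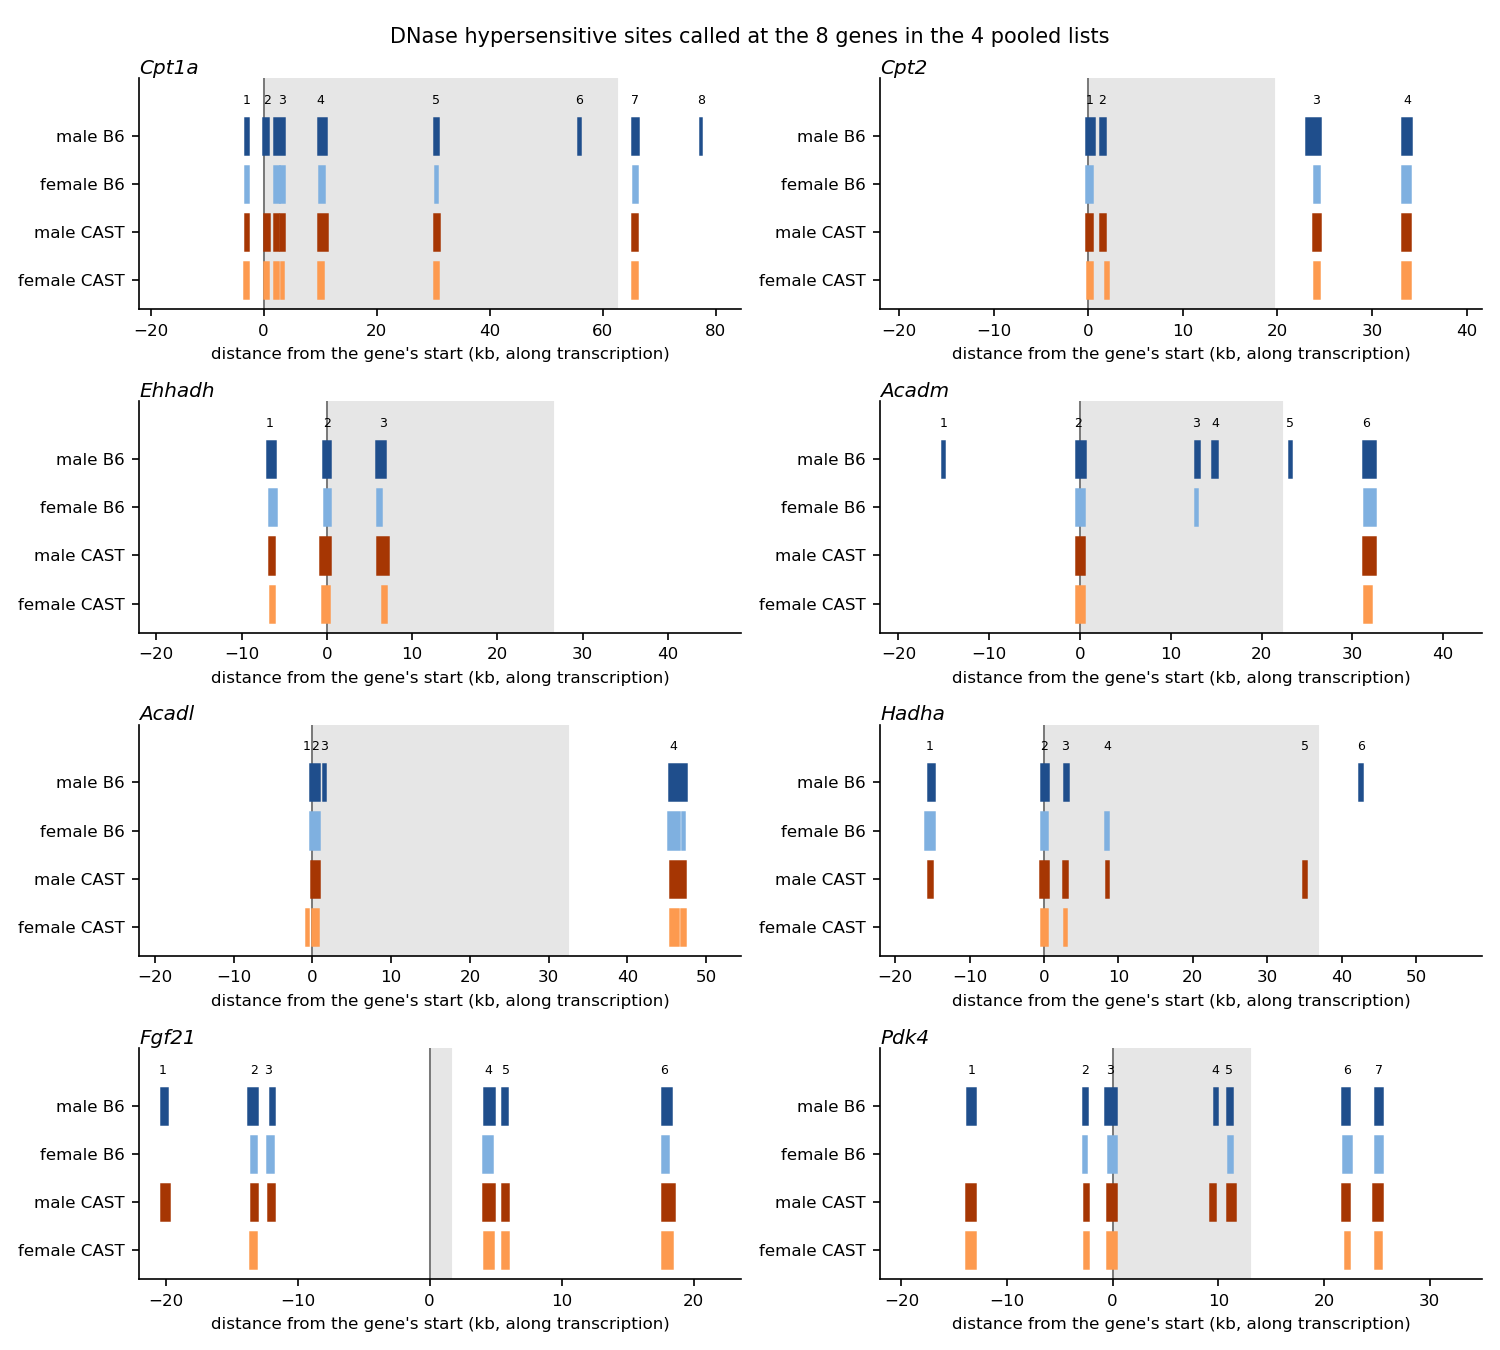
DHS peaks along the 8 genes, by distance from the gene's start in kb in the direction of transcription. Each bar is a peak of 1 list, the grey band is the gene, and the numbers name the joined regions. Peaks at the start are present in all 4 lists at 6 genes, cover the start in the 2 male lists only at Cpt1a, and are missing from every list at Fgf21.

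The start site itself lay in a region of all 4 lists in 6 of the 8 genes, namely Cpt2, Acadm, Acadl, Hadha, Ehhadh and Pdk4. Over protein-coding genes this was so for 40.6%, and 50.6% had no start site in any region. At Cpt1a the joined region over the start site had peaks of 3 lists, of which the 2 male peaks covered the start itself and the female CAST peak began 87 bp inside the gene. No region lay over the start of Fgf21. Strength is given as the deposited fold enrichment, the ratio of fragments at the summit of the peak to the local background, with 1 added to both, and as the percentile of that fold within its own list. The recovered local background was above the genome-wide one at many sites, so a site could hold many fragments and have a low fold.

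Import of fatty acids begins with Cpt1a (chr19:3323301-3385732, plus strand), which encodes the liver carnitine palmitoyltransferase of the outer mitochondrial membrane and the main control point of the pathway. Region 2 held its start site (chr19:3323269-3324240), with the summit in an intron, 632 bp into the gene. The fold was 1.84 in B6 males, 2.40 in CAST males and 2.31 in CAST females, and no peak was called in B6 females. The folds stood at percentiles 0.929, 14.9 and 1.54 of their lists, the first and the last among the lowest. The summits nevertheless held 157, 193 and 74 fragments, on local backgrounds of 84.7, 79.7 and 31.5. In fragments over the genome-wide background the values were 10.2, 13.5 and 9.32, so the low folds went with a raised local background. Scaled as the median region shared by both lists, the male B6 summit would have given 113 fragments in B6 females, where 109 were needed on the scaled local background.

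The strongest distal site of Cpt1a was region 4, in an intron 10047 bp from the start (chr19:3332957-3334493). Its fold was 7.10 in B6 males, 4.60 in B6 females, 8.53 in CAST males and 6.31 in CAST females. It was a broad site, with peaks 1405, 981, 1501 and 746 bp wide. Region 5, in an intron 30548 bp from the start (chr19:3353461-3354254), had a different order, with folds of 3.04 in B6 males, 3.55 in B6 females, 6.50 in CAST males and 4.36 in CAST females. Both CAST lists stood above both B6 lists there. The log2 CAST to B6 ratio was 1.10 in males, at percentile 98.6 of all regions shared by the male lists, and 0.30 in females, at percentile 56.7. The male CAST summit of region 5 lay 16 bp from a match to TTCNNNGAA, the spaced palindrome bound by STAT5, a transcription factor downstream of growth hormone. The summits of the 4 lists spread over 177 bp, and that of female CAST (chr19:3353672) lay outside the sequence shown. The reference sequence around the male CAST summit is shown for the size of the region's strain ratio, with the match in capitals.
Cpt1a region 5 (chr19:3353699-3353998, plus strand): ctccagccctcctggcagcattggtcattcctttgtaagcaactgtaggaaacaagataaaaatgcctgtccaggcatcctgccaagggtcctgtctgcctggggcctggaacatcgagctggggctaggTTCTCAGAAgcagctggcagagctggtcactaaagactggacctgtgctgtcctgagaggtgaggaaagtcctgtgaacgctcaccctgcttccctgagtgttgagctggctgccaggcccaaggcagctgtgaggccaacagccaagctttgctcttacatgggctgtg

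Cpt2 (chr4:107576586-107596215, minus strand) encodes the partner enzyme of the inner membrane, which turns acylcarnitines back into acyl-CoA. Its start site lay in region 1 (chr4:107595654-107596510), over a UTR exon, with folds of 8.07 in B6 males, 5.86 in B6 females, 9.80 in CAST males and 6.51 in CAST females. Region 3 was the strongest distal site (chr4:107571680-107573157), intergenic and beyond the 3′ end of the gene. The folds were 8.13, 5.63, 7.03 and 5.54 in the same order. At both sites the 2 male lists were above the 2 female lists, and CAST was above B6 at the start site in each sex. At the distal site CAST was below B6 in males, while in females the log2 ratio was −0.03 and turned to 0.03 in fragments over the genome-wide background.

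The mitochondrial oxidation cycle was represented by 3 genes. Acadm (chr3:153585321-153607596, minus strand), which encodes the medium-chain acyl-CoA dehydrogenase, had the most fragments of the 44 regions at its start site, region 2 (chr3:153607067-153608080). The summit held 691 fragments in B6 males, 328 in B6 females, 629 in CAST males and 219 in CAST females. The folds were 10.6, 8.39, 10.8 and 9.63, at percentiles 96.4, 96.6, 95.8 and 95.3. The ranks within the lists were alike where the fragment numbers were not.

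The intronic sites of Acadm were found in B6 lists only. Region 4 (chr3:153592455-153593031), 14865 bp into the gene, was in male B6 alone, with a fold of 6.32 at percentile 82.1 and a summit of 171 fragments. It ranked highest among the 7 regions of male B6 alone, which otherwise had folds between 1.88 and 3.03. Scaled as the median region shared by both lists, it would have given 96.2 fragments in B6 females and 167 in CAST males. Either number was enough to be called. By the same scaling, 46.9% of all regions of male B6 that female B6 lacked would have been called in female B6. Of those that male CAST lacked, 100% would have been called in male CAST, so that outcome does not set region 4 apart. Region 3 (chr3:153594481-153594936), also intronic, was in both B6 lists and neither CAST list, with weak folds of 2.19 in males and 2.34 in females.

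Acadl (chr1:66877413-66909851, minus strand), which encodes the long-chain acyl-CoA dehydrogenase, had its start site in region 2 (chr1:66909025-66910213). The folds were 7.39 in B6 males, 5.47 in B6 females, 9.29 in CAST males and 7.12 in CAST females. It had no distal region in its window. Hadha (chr5:30444841-30481702, minus strand), which encodes the alpha subunit of the mitochondrial trifunctional protein, shared region 2 (chr5:30481167-30482193) with the start of Hadhb, the gene of the beta subunit. Its folds of 10.6 in B6 males, 7.88 in B6 females, 10.4 in CAST males and 9.52 in CAST females lay between percentiles 95.1 and 96.5 of their lists. Region 1 (chr5:30496539-30497688), in an intron of Hadhb, was the strongest distal site, with folds of 4.69 in B6 males, 3.49 in B6 females and 5.23 in CAST males and no peak in CAST females. Region 5 lay over another annotated start site of Hadha and was in male CAST alone, with a fold of 2.62 and a summit of 39 fragments.

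Ehhadh (chr16:21761360-21787917, minus strand) encodes the bifunctional enzyme of peroxisomal oxidation, and each of its 3 regions was in all 4 lists. At the start site, region 2 (chr16:21787509-21788714), the folds were 6.06 in B6 males, 4.41 in B6 females, 5.77 in CAST males and 5.36 in CAST females. Region 3 (chr16:21780747-21782128), in an intron, had folds of 3.19, 2.68, 4.13 and 3.72 in the same order. Male lists were above female lists of the same strain at both sites, and the CAST lists were above the B6 lists at the intronic site. The female B6 and female CAST peaks of the intronic region did not overlap each other. They were joined through the male peaks, with summits spread over 438 bp, so the strain comparison in females was between neighbouring sites.

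Pdk4 (chr6:5433351-5446309, minus strand) encodes a kinase that shuts off pyruvate dehydrogenase and so spares glucose when fat is burned. Its start site lay in region 3 (chr6:5445974-5446993), with folds of 8.23 in B6 males, 6.37 in B6 females, 9.44 in CAST males and 7.41 in CAST females. The summits of the 4 lists fell within 43 bp of each other, the closest of the 23 regions of all 4 lists. The strongest distal site was region 7 (chr6:5420809-5421664), intergenic and 25212 bp from the start. Its folds were 7.44 in B6 males, 4.02 in B6 females, 6.54 in CAST males and 3.91 in CAST females. Both male lists stood above both female lists, and the strains were close. The log2 male to female ratio was 0.89 in B6 and 0.74 in CAST, at percentiles 95.4 and 94.5 of all shared regions. In fragments over the genome-wide background the log2 ratios were 0.90 and 0.71, at percentiles 68.1 and 77.8, so it ranked lower among all regions on that scale.

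Region 4 of Pdk4 (chr6:5436460-5437102), in an intron, was called in both lists of males and neither of females. Its fold was 2.70 in each male list, with summits of 45 fragments in B6 and 47 in CAST. Scaled as the median region shared with the female list, the B6 summit would have given 29.0 fragments, just enough to be called, as 29 were needed. The CAST summit would have given 21.0, where 22 were needed on the scaled local background. Region 5 (chr6:5434702-5435524), over a UTR exon, had folds of 3.12 in B6 males, 3.22 in B6 females and 5.26 in CAST males and was absent from female CAST. Sequences of regions 3 and 7 are shown as the site at the start of the gene and the distal site of largest sex ratio. Capitals in region 3 mark TGTTTAC, the core bound by FOXA factors, and in region 7 a direct repeat of AGGTCA with 1 base between, which differed from it at 2 of 12 letters.
Pdk4 region 3 (chr6:5446395-5446694, plus strand): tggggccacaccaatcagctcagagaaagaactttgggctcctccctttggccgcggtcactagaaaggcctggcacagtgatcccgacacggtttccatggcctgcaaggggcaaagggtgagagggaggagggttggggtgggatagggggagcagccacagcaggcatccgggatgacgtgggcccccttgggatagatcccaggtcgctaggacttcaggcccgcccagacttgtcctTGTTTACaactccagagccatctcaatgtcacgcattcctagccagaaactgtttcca
Pdk4 region 7 (chr6:5420947-5421246, plus strand): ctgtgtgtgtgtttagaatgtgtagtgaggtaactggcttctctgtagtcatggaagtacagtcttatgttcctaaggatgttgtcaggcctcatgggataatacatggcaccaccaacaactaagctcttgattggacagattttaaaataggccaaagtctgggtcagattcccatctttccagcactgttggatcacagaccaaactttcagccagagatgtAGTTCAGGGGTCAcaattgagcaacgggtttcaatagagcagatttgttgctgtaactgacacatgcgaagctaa

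**Figure D3:**
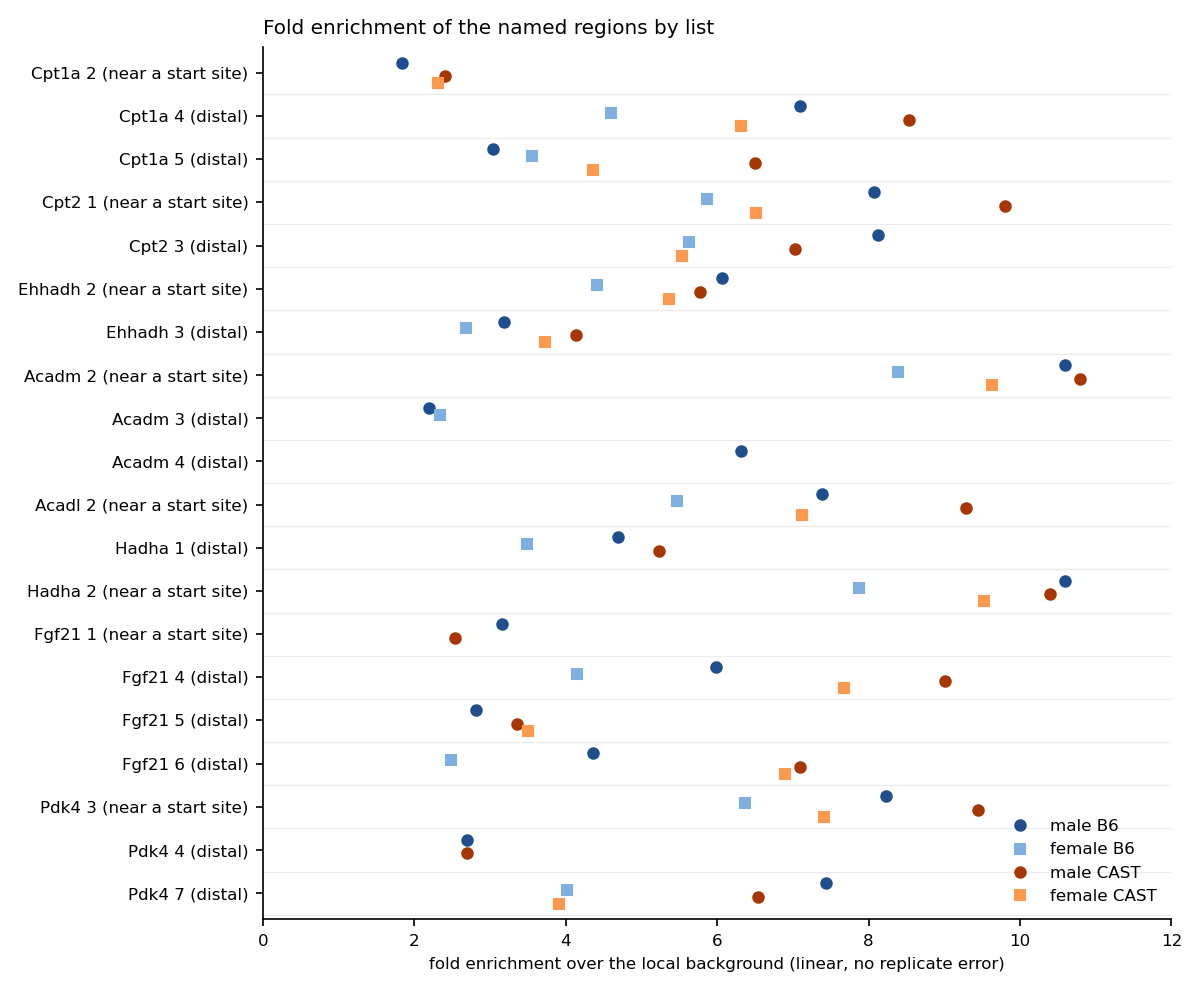
Fold enrichment (linear axis from 0) of the regions described individually, with circles for male and squares for female lists, blue for B6 and orange to brown for CAST. A missing symbol means that no peak was called, and there is no replicate error to draw. At Acadm 2 the folds lie between 8.39 and 10.8, and at Fgf21 6 between 2.48 and 7.10 with both CAST lists highest.

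Fgf21 (chr7:52869277-52870860, minus strand) encodes a hormone that the liver releases in fasting, and it differed from the other 7 genes in having no peak at its start in any list. It had 6 regions, of which 3 lay upstream near Rasip1 and Izumo1 and 3 lay in the intergenic DNA beyond its 3′ end. In fragment numbers, the largest strain ratios were at the downstream regions. Region 4 (chr7:52865993-52866849), 4471 bp from the start, had folds of 5.98 in B6 males, 4.15 in B6 females, 9.01 in CAST males and 7.67 in CAST females. Both CAST lists were above both B6 lists. The log2 CAST to B6 ratio was 0.59 in males, at percentile 91.3 of all shared regions, and 0.88 in females, at percentile 96.0.

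Region 6 (chr7:52852383-52853270), 17798 bp from the start, had the largest strain difference of the 44 regions in females. The fold was 4.36 in B6 males, 2.48 in B6 females, 7.10 in CAST males and 6.90 in CAST females. Among the peaks of its list it stood at percentile 63.8 in B6 males and 83.7 in CAST males. The log2 CAST to B6 ratios were 0.70 and 1.48, at percentiles 94.2 and 99.7 of all shared regions. The nearest start site of an annotated protein-coding, lincRNA or processed-transcript gene was that of Fgf21. Region 5 (chr7:52864906-52865415), between the others, had folds of 2.81 in B6 males, 3.35 in CAST males and 3.50 in CAST females and no peak in B6 females.

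The fragment numbers differed more than the folds, and the local background was also higher in CAST at these sites, at 30.8 in males against 16.6 in B6 at region 6. Region 6 held 76 fragments in B6 males, 36 in B6 females, 225 in CAST males and 109 in CAST females. Region 4 held 154, 78, 385 and 156 in the same order. Over the genome-wide background the log2 CAST to B6 ratios were 1.67 in males and 2.41 in females at region 6, at percentiles 99.1 and 99.9, and 1.43 and 1.81 at region 4, at percentiles 98.3 and 99.4. At region 5 the male ratio was 0.26 for the fold and 1.14 for the fragments. The 95% Poisson intervals of the B6 and CAST values did not overlap within either sex at regions 4 and 6, nor in males at region 5. These intervals cover counting error only, and PCR copies are not separate molecules. The share of all shared regions with intervals apart was not computed, so the gap cannot be called particular to these sites.

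Of the upstream regions, region 2 also had both CAST lists above both B6 lists in fold. Its values were 2.93 in B6 males, 2.77 in B6 females, 4.14 in CAST males and 3.07 in CAST females, but in fragments over the genome-wide background the order was not kept. Region 3 had folds of 1.79, 2.45 and 2.11 in the other lists and no peak in CAST females. Region 1 (chr7:52890632-52891244), in an intron of Rasip1, was called in both lists of males and neither of females, with folds of 3.16 in B6 and 2.53 in CAST. Its male B6 summit of 68 fragments would have given 42.5 in B6 females, enough to be called, and the male CAST summit of 45 would have given 20.3 in CAST females, where 22 were needed on the scaled local background. The reference sequences of the 3 downstream regions are shown as the sites with the largest strain ratios of fragments at this gene. In regions 4 and 6 the capitals mark the summit base of each of the 4 lists, and in region 5 they mark a direct repeat of AGGTCA on the minus strand with 2 of 12 letters changed. The letters are those of the B6 reference, and the CAST sequence was not used here.
Fgf21 region 4 (chr7:52866239-52866538, plus strand): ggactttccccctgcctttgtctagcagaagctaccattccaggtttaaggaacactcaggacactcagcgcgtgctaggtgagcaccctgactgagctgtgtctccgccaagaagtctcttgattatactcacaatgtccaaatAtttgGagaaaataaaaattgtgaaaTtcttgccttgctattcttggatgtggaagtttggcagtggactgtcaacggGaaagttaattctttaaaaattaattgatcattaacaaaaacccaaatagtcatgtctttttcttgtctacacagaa
Fgf21 region 5 (chr7:52864926-52865225, plus strand): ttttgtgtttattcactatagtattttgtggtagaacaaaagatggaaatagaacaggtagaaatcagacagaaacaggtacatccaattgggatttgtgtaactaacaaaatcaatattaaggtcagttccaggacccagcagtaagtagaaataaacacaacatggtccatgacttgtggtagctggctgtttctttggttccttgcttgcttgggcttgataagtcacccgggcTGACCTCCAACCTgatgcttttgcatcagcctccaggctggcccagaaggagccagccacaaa
Fgf21 region 6 (chr7:52852912-52853211, plus strand): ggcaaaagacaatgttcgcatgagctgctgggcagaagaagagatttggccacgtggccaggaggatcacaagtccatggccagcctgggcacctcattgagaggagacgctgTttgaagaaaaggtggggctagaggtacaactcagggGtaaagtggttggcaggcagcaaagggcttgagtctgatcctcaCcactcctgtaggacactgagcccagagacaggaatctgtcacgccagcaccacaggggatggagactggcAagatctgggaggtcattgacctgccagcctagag

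**Figure D4:**
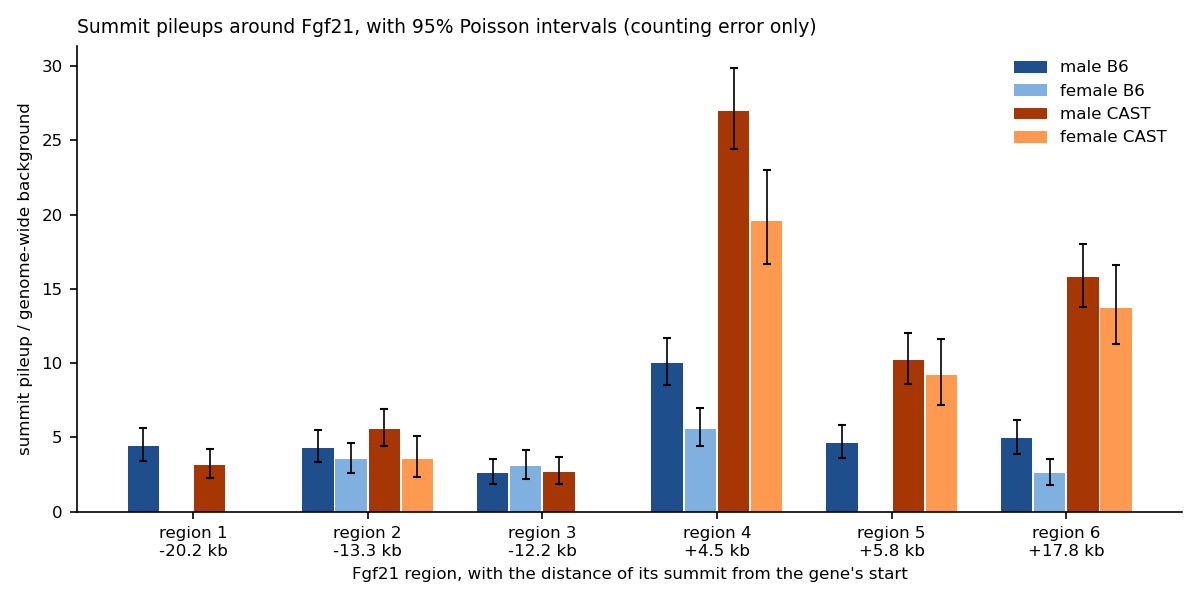
Fragments at the summit divided by the genome-wide background of the list (linear axis from 0) at the 6 regions around Fgf21, with 95% Poisson intervals for counting error only. A missing bar means that no peak was called. At region 6 the values are 4.95 in B6 males and 2.58 in B6 females, against 15.8 in CAST males and 13.7 in CAST females.

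The remaining regions of the 8 windows were of 3 kinds. Those over the start of a neighbouring gene were mostly strong and in all 4 lists. Cpt2 region 4, at the start of 0610037L13Rik, had folds of 10.2 in B6 males, 7.62 in B6 females, 11.2 in CAST males and 8.93 in CAST females. Cpt1a region 7 (at Mtl5), Ehhadh region 1, Acadm region 6 (at Rabggtb) and Acadl region 4 were in all 4 lists too, with folds between 3.26 and 6.93. Those that flanked a member's own start had lower folds. Cpt2 region 2 and Hadha region 3 lacked a peak in B6 females and had folds between 1.94 and 2.71, while Acadl had a flanking peak in CAST females alone (region 1, fold 2.57) and another in B6 males alone (region 3, fold 3.03). Cpt1a region 3 stood out among them, in all 4 lists with folds of 4.52, 4.06, 5.65 and 3.87. It joined neighbouring sites that were separate peaks in every list but male B6. The female CAST value came from the site nearer the start. At the site of the other summits the female CAST fold was 3.70. The order of these kinds held for folds and was not kept throughout in fragments. The local background of Acadl region 3 was 36.6 in B6 males, as at region 2 over the start. Its summit of 113 fragments was 7.36 times the genome-wide background, where Ehhadh region 1 had 6.84 in the same list.

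The last kind was distal and mostly weak. At Cpt1a, regions 6 and 8 were in B6 males alone, with folds of 2.24 and 1.88, and at Acadm regions 1 and 5 were too, with folds of 2.94 and 2.26. Hadha region 6 had a fold of 1.89 in the same list. Pdk4 kept more of its distal sites, as region 6 was in all 4 lists with folds of 3.84 in B6 males, 2.95 in B6 females, 4.99 in CAST males and 3.02 in CAST females. Region 1 of Pdk4 had 3.31, 4.28 and 3.67 in the lists other than that of B6 females. Upstream of the start sites, Pdk4 region 2 had folds of 2.69, 2.70, 3.02 and 2.32 in the order used above, and Cpt1a region 1 had folds between 2.71 and 3.35.

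Across all members, the sexes were compared within each strain. In B6, 42 regions were in at least 1 of the 2 lists and 27 in both, a shared fraction of 64.3% (Wilson 95% interval 49.2 to 77.0), against 58.4% of all regions. Male B6 alone of the pair held 14, or 33.3% (background 36.4%), and female B6 alone held 1, or 2.38% (background 5.13%). In CAST, 28 of 36 regions were shared, or 77.8% (61.9 to 88.3), where the value for all regions was 55.8%. Male CAST alone of the pair held 7, or 19.4% (background 40.3%), and female CAST alone held 1, or 2.78% (background 3.90%). The CAST value was the higher of the 2 with the deposited lists, but at a stricter threshold (−log10 q of at least 15.7) the order turned, with 57.1% shared in CAST and 62.5% in B6. If each male region had scaled as the median shared region did, 9 of the 14 in B6 and 2 of the 7 in CAST would have been called in the female list, against 46.9% and 48.2% of all such regions.

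Fold enrichment was higher in males at most shared regions of the members, as in the genome. The median log2 male to female ratio was 0.42 over 27 regions in B6 and 0.29 over 28 regions in CAST, where all shared regions had 0.40 and 0.25. The ratio was above 0 at 21 of the 27 regions in B6, or 77.8% against 91.5% of all shared regions, and at 24 of the 28 in CAST, or 85.7% against 82.1%. Among the 23 regions of all 4 lists, both male lists exceeded both female lists at 15, or 65.2% (background 62.1%), and both female lists exceeded both male lists at 0 (background 0.715%). In fragments over the genome-wide background, both male lists exceeded both female lists at 20 of the 23, or 87.0%, against 76.7% of all such regions.

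Strains were compared within each sex in the same way. In males, 33 of 43 regions were shared, or 76.7% (62.3 to 86.8), against 60.0% of all regions. Male CAST and not male B6 held 2, or 4.65% (background 20.9%), and male B6 and not male CAST held 8, or 18.6% (background 19.1%). In females, 23 of 34 were shared, or 67.6% (50.8 to 80.9), against 59.1%. Female CAST and not female B6 held 6, or 17.6% (background 18.3%), and female B6 and not female CAST held 5, or 14.7% (background 22.6%). Regions of CAST males that B6 males lacked were thus few, and both lay at Hadha.

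The median log2 CAST to B6 ratio was 0.20 over the 33 shared regions in males and 0.22 over the 23 in females, where all shared regions had 0.08 and 0.25. Both CAST lists exceeded both B6 lists at 5 of the 23 regions of all 4 lists, or 21.7% (background 25.2%), and both B6 lists exceeded both CAST lists at 0 (background 3.35%). The 5 regions were Cpt1a region 5, Ehhadh region 3 (where the female peaks did not overlap each other) and Fgf21 regions 2, 4 and 6. In fragments over the genome-wide background this order was kept at Cpt1a region 5 and Fgf21 regions 4 and 6. By gene, the median ratio in males ran from −0.06 at Ehhadh to 0.38 at Fgf21, and in females from 0.00 at Pdk4 to 0.88 at Fgf21.

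**Figure D5:**
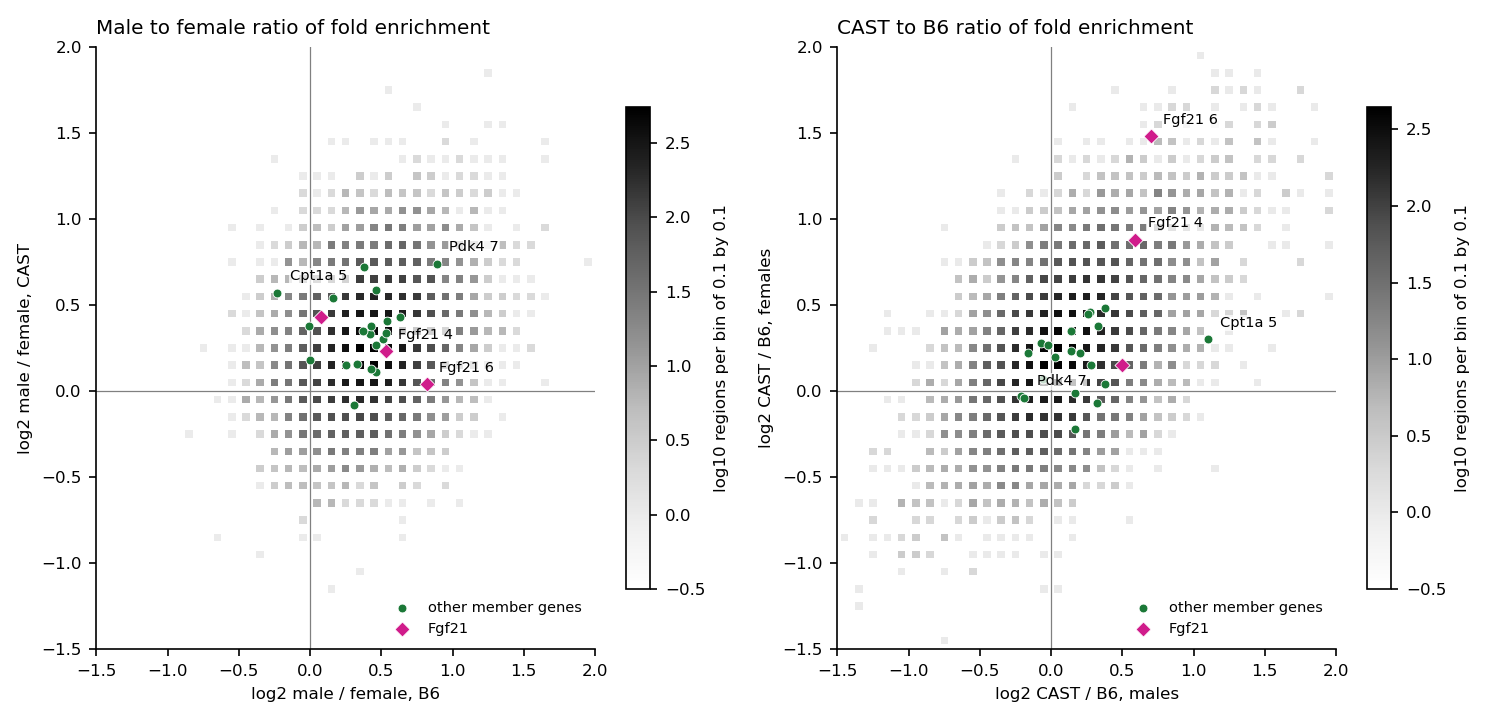
Log2 ratio of fold enrichment between male and female lists (left, B6 on the horizontal and CAST on the vertical axis) and between CAST and B6 lists (right, males horizontal and females vertical). Grey squares count regions of all 4 lists on a log10 scale, green circles are regions of the other 7 genes and magenta diamonds those of Fgf21. Fgf21 6 lies at 0.70 and 1.48 in the right panel, and Pdk4 7 at 0.89 and 0.74 in the left panel.

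Position and shape of the peaks were also set beside those of the genome. Of the 22 distal regions, 9 (40.9%) were in all 4 lists, compared with 24.0% of all distal regions, while 14 of 22 regions near start sites (63.6%) were, close to the 59.1% of the genome. Summits of the regions of all 4 lists spread over a median of 152 bp at the members and 91.0 bp in the genome. At the members the spread ran from 43 bp at Pdk4 region 3 to 1241 bp at Cpt1a region 3, where neighbouring sites were joined. The peaks in these regions had median widths of 932 bp in B6 males, 691 bp in B6 females, 856 bp in CAST males and 727 bp in CAST females. Over the genome the widths were 803, 646, 788 and 599 bp, so the members were the wider in each list. Widths and spreads were not matched for position. Of the regions of all 4 lists, 39.1% were distal at the members and 45.3% in the genome.

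Motifs were searched on both strands in the 300 bp around the summit of each region's strongest list. A direct repeat of AGGTCA with 1 base between and up to 2 of 12 letters changed, the form bound by PPARα with RXR and overlapping in part with that of HNF4A, was found in 3 of 44 windows (6.82%), against 8.43% of all regions. The 3 windows were Fgf21 regions 1 and 5 and Pdk4 region 7. With at most 1 letter changed it was found in 0, against 1.56%. TTCNNNGAA was found in 6 windows (13.6%, against 10.2%), TGTTTAC in 5 (11.4%, against 6.58%) and CAAAGTCCA, the HNF4A form, in 0 (against 1.69%). The median GC content of the windows was 48.8%, against 49.0% over all regions.

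The other genes of the pathway gave a similar picture at their start sites. Of 38 such genes, 33 had a start site in a region of all 4 lists and 4 had none in any list (Slc27a2, Acsl5, Cpt1b and Vnn1), while Ppargc1a had it in male CAST alone. All 13 genes of mitochondrial oxidation, all 7 of peroxisomal oxidation and all 4 of ketogenesis had a start site in all 4 lists, as did 5 of 8 genes of fatty acid entry and the carnitine cycle and 4 of 6 regulators. Ppara, the gene of PPARα, had 12 regions in its window, of which 7 were in all 4 lists.

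Leaving out the regions of the 8 members, these windows held 252 regions, of which 119 (47.2%) were in all 4 lists, against 52.3% at the members. There were 21 in both male lists only (8.33%, against 9.38% of all regions), 5 in both B6 lists only (1.98%, against 3.32%) and 9 in both CAST lists only (3.57%, against 3.62%), shares close to or below those of the genome. Both female lists only held 0, where 0.0622% of all regions were. Of the CAST-limited regions the strongest was near Eci2, which encodes an enoyl-CoA isomerase (chr13:35128177-35129124), with folds of 8.92 in males and 4.84 in females. The median log2 male to female ratio was 0.34 in B6 and 0.22 in CAST, and the median CAST to B6 ratio was 0.12 in males and 0.28 in females.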

How the data were processed

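The authors performed DNase-seq on nuclei of livers from B6 and CAST animals of each sex, 4 libraries per group, and the groups were taken from the library titles. A further library of each group, left out by the authors for quality, was not analysed here. Reads were aligned with Bowtie2, B6 reads to mm9 and CAST reads to a custom CAST genome with later conversion to mm9, and the authors called peaks with MACS2 on the pooled libraries of each group, per the labels and the study's methods. The deposited lists give for each peak the fold enrichment, a ratio to local background, and the −log10 p-value and −log10 q-value that the authors' caller assigned. The deposited summit offset, another unit, is the distance in bp of the summit from the peak start. Input DNA is what the study's methods name as background for peak calling.

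From these lists, summit fragment numbers and local backgrounds were recovered from the fold and the p-value. The fragment numbers were within 0.02 of a whole number for 99.9% or more of the peaks of each list. Peaks were joined at 1 bp overlap. Genes and start sites came from the GENCODE annotation of mm9 and sequences from that assembly. The percentile is the share of a list's peaks with an equal or lower fold, or of all shared regions with an equal or lower log2 ratio. For a region absent from a list, the fragments above background were scaled by the median ratio of such fragments at regions of both lists. There was 1 list per group, so no test was made, and shares carry Wilson intervals and fragment numbers exact Poisson intervals, which cover counting error only. Regions described individually were, for each gene, the region at or nearest to its start site, the distal region of highest mean percentile and each region limited to 1 sex or strain. Fgf21 regions 2, 3, 5 and 6, Cpt1a regions 1, 3 and 5, Pdk4 regions 2 and 5, and Hadha regions 4 and 5 were added after their values were seen. The members and lists were chosen with earlier results of these data known. Joining and recovery were tested on simulated data. Python with numpy, pandas, scipy and statsmodels was used. Alternatives were an overlap of 50% of both peaks, a stricter threshold (−log10 q of at least 15.7, the pooled median), lists limited to the same number of peaks (24888, by q-value), depth matching to the shallowest list (peaks at or above the lowest −log10 p of that list), a window of 10 kb, and joining within 500 bp. The ratio of fragments over the genome-wide background was added after seeing the data. Some single genes of the wider pathway are not reported here.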

Additional observations from a re-analysis of the deposited data

Results flagged for a closer look

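Region 5 of Cpt1a, an intronic site, had opposite sex differences in the 2 strains, with a log2 male to female ratio of fold enrichment of −0.23 in B6 and 0.57 in CAST. An intronic region of Hadha, region 4 (chr5:30473094-30473552), was called in 1 sex of each strain and not the same one, with a fold of 2.31 in female B6 and 2.66 in male CAST. Both summits were weak, at 39 and 46 fragments. Opposite strain differences in the 2 sexes were seen at 2 more regions. Upstream of Cpt1a, region 1 had a log2 CAST to B6 ratio of −0.16 in males and 0.22 in females, and upstream of Pdk4, region 2 had 0.17 in males and −0.22 in females. None of these differences was tested, since each group had a single list.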

How the results depend on the processing

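No paired analysis was possible because each group had 1 list called on pooled libraries, which also means that leaving out single replicates was not possible. Of 90 values, for 15 results under 6 alternatives, 82 stayed within the limit set for them and 0 changed direction. The limit was 1.5 times for a count, the Wilson interval for a shared fraction and 0.1 for a median log2 ratio. Some of the 82 could not move. The peak number of each list was fixed under the alternatives that changed only how peaks were joined. That of CAST females was also fixed with lists of equal size and with depth matching, as that list set both limits. Such values say nothing about stability. The stricter threshold moved 6 of the values that left their limits. It left 14 regions in all 4 lists, 5 in both male lists only, 23 peaks in B6 males, 17 in B6 females and 17 in CAST females, and a sex-shared fraction in CAST of 57.1%. Regions in both male lists only fell to 0 with lists of equal size and to 1 with a window of 10 kb. By gene, the stricter threshold left 1 region in all 4 lists at Ehhadh, Fgf21 and Pdk4, 3 at Cpt1a, and the reported number at the other 4 genes.

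Fragments over the genome-wide background, chosen after seeing the data, gave a median log2 male to female ratio of 0.87 in B6 and 0.55 in CAST and a median CAST to B6 ratio of 0.36 in females, where all shared regions had 0.74, 0.48 and 0.37. Among 71 single ratios, 9 changed sign. The male to female ratio became 0.02 at Cpt1a region 5, 0.65 at Acadm region 3 and 0.32 at Pdk4 region 2 in B6, and 0.28 at Cpt1a region 1 and 0.15 at Fgf21 region 5 in CAST. The CAST to B6 ratio became −0.03 at Acadm region 2 and −0.05 at Hadha region 1 in males, and 0.03 at Cpt2 region 3 and 0.02 at Pdk4 region 7 in females. The opposite sex differences at Cpt1a region 5 were therefore not seen on that scale. Of the 7 regions of male CAST that female CAST lacked, 5 fell short of a call when scaled by the median ratio at shared regions. Hadha region 1 and Pdk4 region 5 would have been called. That ratio was 0.386 for fragments above background, where the genome-wide background was 14.3 in CAST males and 7.94 in CAST females. Depth matching left 35 of the 36 male CAST peaks at the 8 genes. What set the ratio of 0.386 was not tested. With 1 pooled list per group, depth, quality of enrichment and a difference between the sexes could not be told apart.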
